A study of Serapias vomeracea and Serapias vomeracea
Tulasnella calospora with 6 samples.

Results

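Among the transcripts assembled from Serapias vomeracea protocorms, 45 were plainly expressed without a fungus and nearly absent with the mycorrhizal fungus Tulasnella calospora. They were chosen from 205249 assembled transcript sequences, or contigs, by their abundance in CPM, that is, the reads of a contig scaled to a fixed total of reads per library. Each has at least 300 bp, at least 10 CPM in each of 3 asymbiotic libraries and less than 1 CPM in each of 3 mycorrhizal libraries. Of the 9989 contigs of at least 300 bp that reached 10 CPM in every asymbiotic library, the 45 make up 0.450%. They are called silenced contigs here for that pattern alone. Since the rule used the abundance of both groups, the difference between the groups is a description of these contigs and not a test.

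The mycorrhizal protocorms came from S. vomeracea seeds sown with a plug of T. calospora on oat medium. The asymbiotic protocorms, described as achlorophyllous (without chlorophyll), came from seeds on modified BM1 medium with no fungus. Both were kept at 20 °C in darkness and taken at the stage that the labels name P2, and each group has 3 libraries called biological replicates. Medium and fungus changed together between the groups, and their effects cannot be told apart. No age in days, plate or number of protocorms per library is given in the labels.

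An orchid seed carries almost no reserves, and the embryo grows into a protocorm, a small body without leaves or roots that lives on carbon and minerals from a fungus. In the symbiosis, fungal hyphae form coils inside cells of the protocorm, and these coils are later digested. In asymbiotic culture a nutrient medium takes the place of the fungus. The mycorrhizal libraries hold RNA of both organisms, while the reference was assembled by Trinity from the asymbiotic, plant-derived reads only, per the series' design text. Trinity groups contigs that share sequence into clusters, divides a cluster into what it calls genes, and lists the contigs of a gene as its isoforms. Such a gene is a unit of the assembly, and its contigs can be splice forms, alleles, close copies or fragments. The files pair no contig identifier with a gene name, so no function, pathway or marker of the tissue could be looked up. The organism that each contig came from was not checked either. Of the silenced contigs, 2 are given by identifier and the others by length.

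Together the silenced contigs held 12.04, 6.96 and 2.81 CPM in mycorrhizal replicates 1 to 3, against 1492, 1936 and 1755 CPM in asymbiotic replicates 1 to 3. The sum averaged 7.27 ± 4.62 CPM in mycorrhizal and 1728 ± 223 CPM in asymbiotic protocorms (n = 3 each, SD). A single contig made up 20.7% of the asymbiotic sum. In bulk tissue, fewer cells of a type and less RNA per cell cannot be told apart. The fall in mean CPM ran from 31.0-fold to 26519-fold among the contigs with a mycorrhizal read. With the 6 contigs that had none set to a floor of 3 reads per library, the median was 248-fold, 35 contigs were at least 100-fold lower and 9 at least 1000-fold lower.

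Libraries held 174635344 to 216364014 reads in the mycorrhizal and 87991285 to 109869317 in the asymbiotic group. Mycorrhizal replicate 3 stood apart from the others, with reads on 51806 contigs against 108857 and 116372 in mycorrhizal replicates 2 and 1. In the asymbiotic group, replicate 2 had reads on 83622 contigs, against 126093 and 164346 in replicates 3 and 1. Of the 8425 contigs of at least 300 bp with 10 CPM or more in the 5 other libraries, 404 were under 1 CPM in mycorrhizal replicate 3. The same number was 27 of 7511 for asymbiotic replicate 2 and at most 13 for any other library. Because 1 CPM is 175 to 216 reads in the mycorrhizal libraries, the limit of the rule lies far above the counting floor there. A count of 0 allows up to 3 reads, or 0.0139 to 0.0172 CPM, which covers counting error only.

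**Figure D1:**
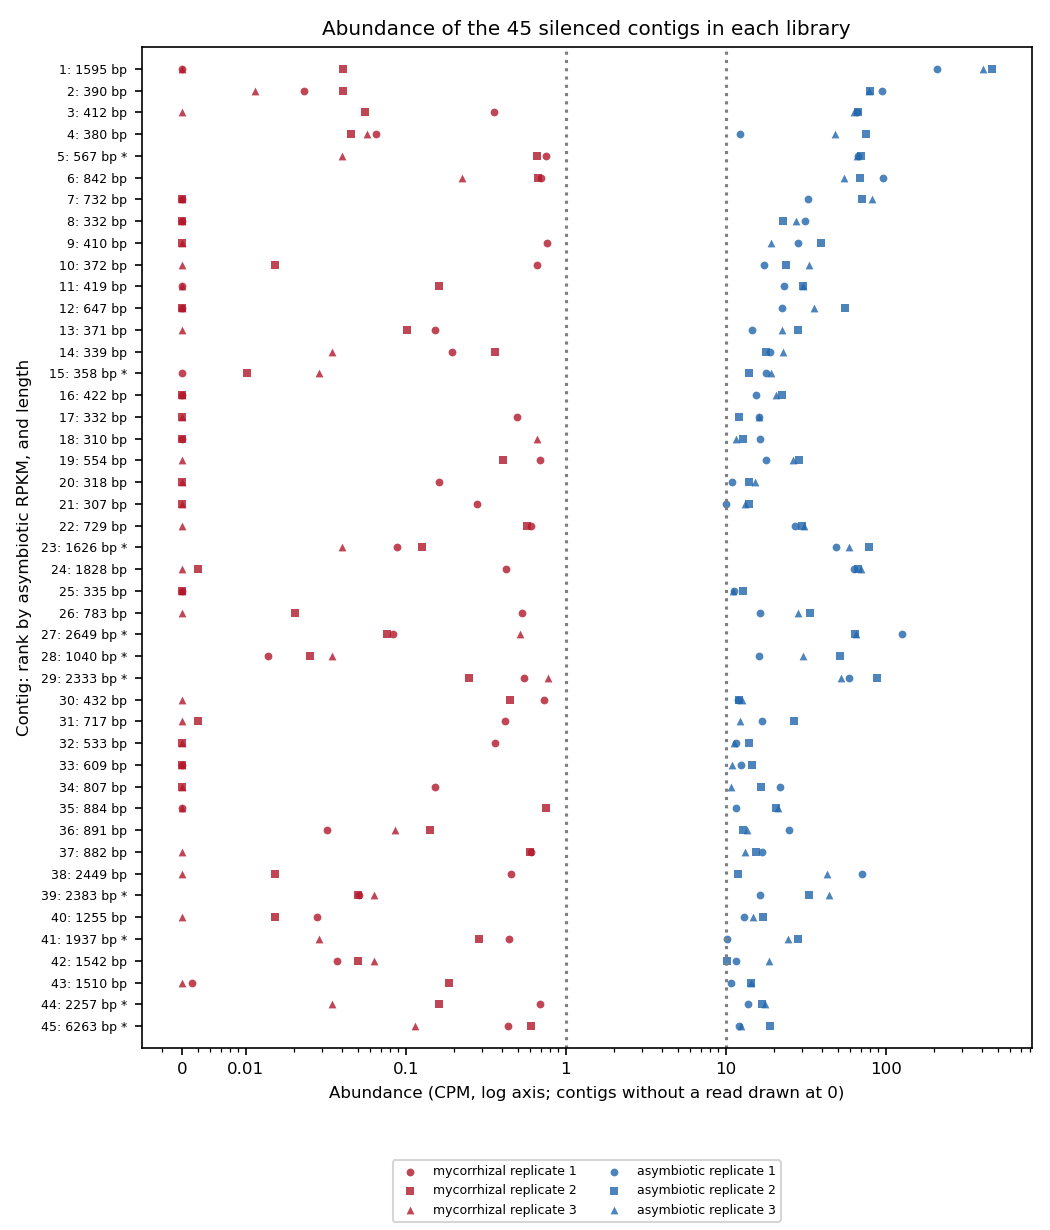
Abundance of each silenced contig in each library, in CPM on a log axis (0 is placed at its left end), with red marks for the 3 mycorrhizal and blue marks for the 3 asymbiotic libraries. Rows follow the rank by asymbiotic RPKM and give the contig length, a star marks contigs whose Trinity gene kept at least 10 CPM in every mycorrhizal library, and dotted lines stand at 1 and 10 CPM. Red marks lie at 0 for 28 of 45 contigs in mycorrhizal replicate 3, against 11 and 13 in replicates 1 and 2.

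The gap between the groups was wide for most of the silenced contigs, but the mycorrhizal libraries did not all look alike. No read was found in 11, 13 and 28 of the 45 contigs in mycorrhizal replicates 1 to 3. Among all 9989 contigs at 10 CPM or more in the asymbiotic libraries, the numbers without a read were 13, 13 and 239. The 45 thus include most of the expressed contigs that had no read in mycorrhizal replicate 1, and all of those in replicate 2. This follows in part from the rule, which asks for low counts there. In mycorrhizal replicate 3, most contigs without a read were not silenced ones. Reads were found in all 3 mycorrhizal libraries for 15 silenced contigs, in replicates 1 and 2 but not 3 for 13, in replicate 1 alone for 6 and in no library for 6. Where a silenced contig had mycorrhizal reads, its highest mycorrhizal value was in replicate 1 for 23 contigs, in replicate 2 for 9 and in replicate 3 for 7.

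Of the 9989 expressed contigs, 9129 were at 1 CPM or more in every mycorrhizal library. A further 774 were under 1 CPM in a single mycorrhizal library, and 716 of these were low in replicate 3 alone. Another 41 were under 1 CPM in a pair of mycorrhizal libraries. When the condition on mycorrhizal replicate 3 was dropped, 53 contigs met the rule, and 67 and 56 did so without replicate 1 or 2. Dropping asymbiotic replicate 1, 2 or 3 gave 55, 59 and 51, and each of these lists holds the 45 by construction. Without both mycorrhizal replicate 3 and asymbiotic replicate 2, 69 contigs met the rule. In the reverse direction, 137 of the 9171 contigs of at least 300 bp with 10 CPM or more in every mycorrhizal library were under 1 CPM in every asymbiotic one, or 1.49%. This share is not a like counterpart of the 0.450%. The reference was assembled from asymbiotic reads only, and the mycorrhizal libraries also hold fungal RNA.

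**Figure D2:**
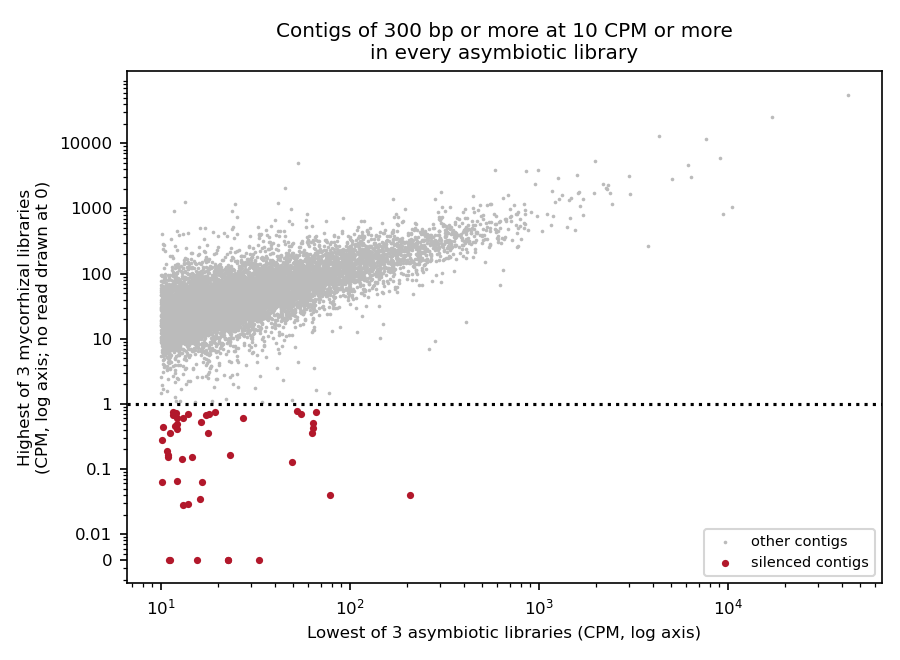
Each point is 1 of the 9989 contigs of at least 300 bp with 10 CPM or more in every asymbiotic library. The horizontal axis gives its lowest asymbiotic and the vertical axis its highest mycorrhizal value, both in CPM on log axes, and the 45 silenced contigs are in red. They lie under the dotted line at 1 CPM, and the contigs just above it are few.

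Near the limits the values run on without a step. The silenced contig nearest to the mycorrhizal limit, 2333 bp long, had 0.550, 0.248 and 0.773 CPM in mycorrhizal replicates 1 to 3. The nearest contig beyond it, of 1766 bp, had 0.120, 1.06 and 0 CPM there and 34.0 to 42.7 CPM in the asymbiotic libraries. At the asymbiotic limit, the contig just inside was 307 bp long, with 10.1 CPM in its lowest asymbiotic library, and the one just outside was 1788 bp long, with 9.76 CPM. The contig of 307 bp was also the shortest. The longest contig that met the abundance rule but missed the length had 290 bp and stood at 17.8 to 18.7 CPM in the asymbiotic libraries.

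The highest level per length belonged to TRINITY_DN74828_c0_g2_i1, a contig of 1595 bp. It had 0, 8 and 0 reads in mycorrhizal replicates 1 to 3, against 22950, 40304 and 41915 reads in asymbiotic replicates 1 to 3. That is 0.0135 ± 0.0234 CPM in mycorrhizal and 358 ± 132 CPM in asymbiotic protocorms (n = 3 each, SD). Its deposited RPKM, which divides by contig length and by library reads, averaged 224 ± 82.5 in the asymbiotic libraries (SD, n = 3). Asymbiotic replicate 1 was the lowest of that group, and the groups lay several orders of magnitude apart. The log2 fold change was -14.62 ± 1.67, where ± gives the SE for every log2 fold change, with an adjusted p = 0.0143 by edgeR's quasi-likelihood test. Reads unique to this contig made up 97.5% of its total. The call was lost under 9 of 13 alternatives, among them unique reads alone (edgeR adjusted p = 0.0893). It was lost without mycorrhizal replicate 3 and asymbiotic replicate 2 together (edgeR adjusted p = 0.0920), without mycorrhizal replicate 1 (edgeR adjusted p = 0.159) and without asymbiotic replicate 1, 2 or 3 (edgeR adjusted p = 0.354, 0.212 and 0.523). Over all its alternatives the adjusted p ranged between 1.8e-11 and 0.523, and the log2 fold change between -18.70 and -13.89. Since the contig was chosen on the same contrast, these values describe it and are not a test.

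This contig was not alone in its cluster. A second contig of the same Trinity gene, 647 bp long, had no read in any mycorrhizal library and 22.6, 55.9 and 35.8 CPM in asymbiotic replicates 1 to 3. By the floor of 3 reads per library it was at least 2473-fold lower in mycorrhizal protocorms, for counting error alone. The remaining contigs of the cluster, a pair of 209 bp each and below the length limit, also had no mycorrhizal read. They stood at 11.9, 31.5 and 31.4 CPM and at 8.58, 18.4 and 16.2 CPM in asymbiotic replicates 1 to 3. All 4 contigs of the cluster thus had their lowest asymbiotic value in replicate 1. Summed over the cluster, a total of 8 reads were left in the mycorrhizal libraries, all on the contig of 1595 bp.

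Second in level per length was TRINITY_DN70685_c0_g6_i1, with 390 bp and 216 ± 22.9 RPKM in the asymbiotic libraries (SD, n = 3). It had 5, 8 and 2 reads in mycorrhizal replicates 1 to 3, against 10369, 7021 and 8046 reads in asymbiotic replicates 1 to 3. In CPM these are 0.0250 ± 0.0146 in mycorrhizal and 84.1 ± 8.94 in asymbiotic protocorms (n = 3 each, SD). The asymbiotic values lay close together, while the mycorrhizal ones rest on a few reads each. The log2 fold change was -11.68 ± 0.67 (adjusted p = 6.35e-05 by edgeR). It was called under each of the 13 alternatives, with a log2 fold change between -12.27 and -11.29. The rule chose this contig on the same contrast, so these calls are a description and not a test. Other contigs of its cluster, which are in other Trinity genes, summed to 879 ± 22.3 CPM in mycorrhizal and 2361 ± 266 CPM in asymbiotic protocorms (n = 3 each, SD). Of its reads, 49.1% were unique.

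The contigs ranked 3 to 20 by asymbiotic RPKM lay between 42.0 and 158 RPKM. The 20 leading contigs had a median length of 400 bp, and the other 25 a median of 1040 bp. A rank by RPKM favours short contigs, since RPKM divides by length. Next in rank was a contig of 412 bp with 0.356, 0.0557 and 0 CPM in mycorrhizal replicates 1 to 3, against 65.6, 67.3 and 62.9 CPM in asymbiotic replicates 1 to 3. It formed a cluster with only one further contig, of 410 bp, which was silenced too. That contig had 164 reads in mycorrhizal replicate 1 and none in replicates 2 and 3, against 28.3, 39.6 and 19.3 CPM in asymbiotic replicates 1 to 3. Most of this pair's remaining reads were in mycorrhizal replicate 1.

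The fourth contig, of 380 bp, had the widest ratio between asymbiotic libraries of the 45. Its mycorrhizal values were 0.0647, 0.0456 and 0.0573 CPM in replicates 1 to 3, against 12.2, 75.6 and 48.5 CPM in asymbiotic replicates 1 to 3. The ratio of the highest to the lowest asymbiotic library was 6.20 for this contig. It had a median of 1.57 over the 45 contigs and was above 2 in 12 of them. The sixth contig, of 842 bp, was among those with the most remaining reads, at 0.698, 0.673 and 0.223 CPM in mycorrhizal replicates 1 to 3, against 96.0, 69.2 and 55.2 CPM in asymbiotic replicates 1 to 3.

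Besides the contig of 647 bp, 5 silenced contigs had no read in any mycorrhizal library. The contig of 732 bp had 32.8, 70.8 and 82.4 CPM in asymbiotic replicates 1 to 3. One of 332 bp had 31.4, 22.7 and 27.7 CPM, and one of 422 bp had 15.5, 22.5 and 20.7 CPM in the same libraries. These 3 were above the limit of 10 CPM in each asymbiotic library. Contigs of 335 and 609 bp lay just above it, at 11.1 to 12.8 and 11.0 to 14.6 CPM. Over the 6 contigs, the floor of 3 reads per library gives falls of at least 762-fold to at least 4024-fold.

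A cluster of 9 contigs in 8 Trinity genes held 3 of the silenced contigs and was low as a whole. Summed over the cluster, mycorrhizal replicates 1 to 3 had 2.39, 0.471 and 0 CPM, against 226, 205 and 256 CPM in asymbiotic replicates 1 to 3. Its 6 contigs that are not silenced ones by the rule held 0.787 ± 0.984 CPM in mycorrhizal and 167 ± 22.3 CPM in asymbiotic protocorms (n = 3 each, SD). The most abundant of them, of 332 bp, had 1.45, 0.451 and 0 CPM in mycorrhizal replicates 1 to 3 and 89.7, 76.9 and 114 CPM in asymbiotic replicates 1 to 3. It missed the rule through mycorrhizal replicate 1 alone. A contig of 290 bp missed it through its length, and one of 708 bp had no mycorrhizal read but only 8.30 CPM in asymbiotic replicate 2. Of the 9 contigs, 3 have the same length of 332 bp.

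**Figure D3:**
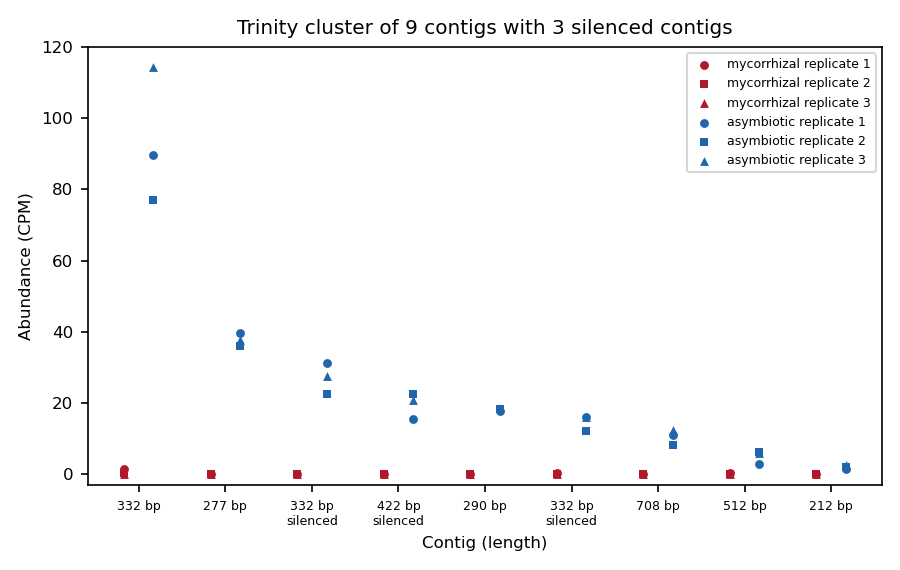
Abundance in CPM, on a linear axis, of the 9 contigs of 1 Trinity cluster, with red marks for the 3 mycorrhizal and blue marks for the 3 asymbiotic libraries. Labels give contig lengths and mark the 3 contigs that met the rule. The mycorrhizal marks lie at or near 0 for all 9, while the asymbiotic marks reach 114 CPM.

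Further pairs of silenced contigs shared a cluster in 2 other cases. A cluster of 12 contigs with silenced contigs of 807 and 2449 bp held 1.03, 0.825 and 0 CPM in mycorrhizal replicates 1 to 3, against 119, 85.2 and 71.2 CPM in asymbiotic replicates 1 to 3. One of 8 contigs with silenced contigs of 318 and 419 bp held 2.08, 2.25 and 0 CPM in mycorrhizal and 49.8, 58.0 and 53.6 CPM in asymbiotic replicates 1 to 3. In all, the 45 contigs fell into 44 Trinity genes and 39 clusters, and 11 of them shared 5 clusters. Contigs of 1 cluster share sequence and can share reads, so their values are not independent.

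Whether the whole assembled gene was low, or only one of its contigs, differed among the 44 Trinity genes. This was examined after the values had been seen, by the reads summed over all contigs of each gene. In 28 of the genes, the sum was under 1 CPM in every mycorrhizal library. For 19 of these there is no contig beyond the silenced ones, and for 9 there is. In the 19 the low sum follows almost wholly from the rule. Only the 25 genes with other contigs, these 9 among them, bear on the question. In 10 genes the sum was still at least 10 CPM in every mycorrhizal library, and the other 6 lay between. Averaged over the asymbiotic libraries, the silenced contig held 2.80% to 45.7% of its gene's reads in those 10, with a median of 15.9%. The highest share was that of the contig of 1626 bp, at 35.2%, 58.5% and 43.3% in asymbiotic replicates 1 to 3. In mycorrhizal protocorms these 10 genes kept 11.6% to 108% of their asymbiotic CPM, with a median of 81.8%. Fewer were low as whole clusters, which can hold further Trinity genes. Of the 39 clusters, 10 were under 1 CPM in every mycorrhizal library, 17 had at least 10 CPM in each, and 12 lay between. For example, the silenced contig of 380 bp was alone in its gene. Its cluster held 13991 ± 8183 CPM in mycorrhizal and 12270 ± 5134 CPM in asymbiotic protocorms (n = 3 each, SD).

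The 10 contigs whose gene kept at least 10 CPM in every mycorrhizal library differed from the other 35 in length and in the share of unique reads. Their median length was 2097 bp, against 554 bp for the others. Unique reads made up a median of 6.13% of their reads, against 70.1% for the others. This gap can follow in part from the grouping, since a gene could keep 10 CPM only through other contigs. Among the 35 are 18 that were the only contig of their gene. More than 90% of the reads were unique in 0 of the 10 and in 14 of the 35. The sources used here do not say how reads that match several contigs were shared out. The part of this in these 10 contigs, or in the other 35, was not tested. On unique reads alone, edgeR tested 9 of the 10 and called 5 of them lower, while 4 were not called (edgeR adjusted p = 0.117 to 0.530). The contig of 2257 bp was not tested, with no unique read in mycorrhizal libraries and 22, 0 and 34 in asymbiotic replicates 1 to 3. The following 3 are among the 5 that were called. The contig of 1626 bp had no unique read in any mycorrhizal library and 537, 772 and 459 in asymbiotic replicates 1 to 3. The contig of 1040 bp had none in mycorrhizal and 239, 1063 and 750 in asymbiotic libraries, and that of 358 bp none in mycorrhizal and 1279, 823 and 1418 in asymbiotic libraries.

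In some of these genes a contig of nearly the same length carried on. The silenced contig of 2333 bp had 58.6, 88.2 and 52.5 CPM in asymbiotic replicates 1 to 3. Only 4.12% of its reads were unique, and on unique reads alone it was not called (edgeR adjusted p = 0.117). Next to it, a contig of 2320 bp in the same gene had 306, 307 and 441 CPM in mycorrhizal replicates 1 to 3, against 378, 169 and 233 CPM in asymbiotic replicates 1 to 3. The groups overlapped in this second contig, whose log2 fold change was 0.34 ± 0.28 (adjusted p = 1.00 by edgeR). Its share of unique reads was 2.50%. In another gene the silenced contig of 1040 bp had 0.0139, 0.0253 and 0.0344 CPM in mycorrhizal replicates 1 to 3, against 16.2, 51.8 and 30.5 CPM in asymbiotic replicates 1 to 3. Its neighbour of 965 bp had 303, 303 and 310 CPM in mycorrhizal replicates 1 to 3, against 354, 323 and 319 CPM in asymbiotic replicates 1 to 3, a log2 fold change of -0.18 ± 0.18 (adjusted p = 1.00 by edgeR). All 3 mycorrhizal values of this neighbour were lower than the asymbiotic ones, by a small margin.

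A silenced contig of 567 bp had 0.753, 0.663 and 0.0401 CPM in mycorrhizal replicates 1 to 3, against 66.9, 70.5 and 65.7 CPM in asymbiotic replicates 1 to 3. The leading contig of its gene, of 637 bp, averaged 360 ± 83.9 CPM in mycorrhizal and 362 ± 35.3 CPM in asymbiotic protocorms (n = 3 each, SD). With 73.7% unique reads, the silenced contig had the highest share among the 10. A silenced contig of 2383 bp stood beside one of 2365 bp that averaged 155 ± 71.8 CPM in mycorrhizal and 157 ± 37.5 CPM in asymbiotic protocorms (n = 3 each, SD). The longest silenced contig, of 6263 bp, had 0.434, 0.602 and 0.115 CPM in mycorrhizal replicates 1 to 3, against 12.1, 18.9 and 12.5 CPM in asymbiotic replicates 1 to 3. One of the other contigs of its gene, 6196 bp long, had 28.1, 65.2 and 23.8 CPM in mycorrhizal replicates 1 to 3, against 20.7, 4.49 and 3.22 CPM in asymbiotic replicates 1 to 3. The groups did not overlap, but the difference was not called (log2 fold change 2.04 ± 0.76, with an edgeR adjusted p = 0.392).

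Over the 10 genes, the leading other contig differed by at most 100 bp from the silenced one in 5. Its log2 fold change was within 0.5 of 0 in 8 genes. In the other 2 it was called lower as well. The silenced contig of 358 bp belonged to a gene whose leading contig, of 838 bp, fell to 115 ± 56.9 CPM in mycorrhizal protocorms, against 573 ± 110 CPM in asymbiotic ones (n = 3 each, SD), a log2 fold change of -2.34 ± 0.38 (adjusted p = 0.0228 by edgeR). Likewise the silenced contig of 1937 bp belonged to a gene whose leading contig, of 1782 bp, had 49.1, 32.9 and 49.1 CPM in mycorrhizal replicates 1 to 3, against 216, 403 and 493 CPM in asymbiotic replicates 1 to 3. Its log2 fold change was -3.17 ± 0.35 (adjusted p = 0.00284 by edgeR). Both contigs stayed above 30 CPM in every mycorrhizal library.

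**Figure D4:**
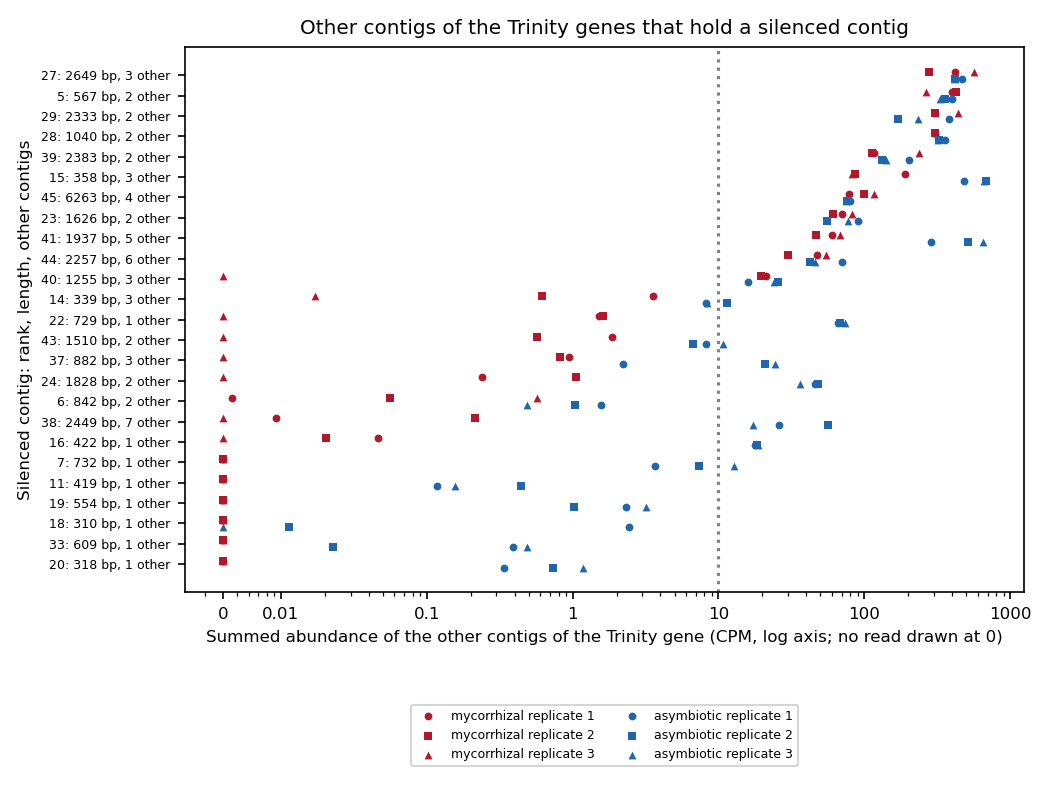
Summed abundance of the other contigs in each of the 25 Trinity genes with contigs beyond the silenced one, in CPM on a log axis (0 at its left end). Red marks are the 3 mycorrhizal and blue marks the 3 asymbiotic libraries, rows give the silenced contig's rank and length and the number of other contigs, and the dotted line stands at 10 CPM. In the upper 10 genes all 3 mycorrhizal libraries lie above 10 CPM, and in most of the lower genes at least mycorrhizal replicate 3 is at 0.

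Each of the 6 genes between had other contigs with reads in mycorrhizal replicates 1 and 2. In the gene of the silenced contig of 1255 bp, the other contigs had 21.0, 19.5 and 0 CPM in mycorrhizal replicates 1 to 3, against 15.98, 25.7 and 23.8 CPM in asymbiotic replicates 1 to 3. Here mycorrhizal replicate 3 alone lacked reads. A silenced contig of 729 bp stood beside one of 978 bp that had 1.51, 1.62 and 0 CPM in mycorrhizal replicates 1 to 3, against 65.9, 68.5 and 73.5 CPM in asymbiotic replicates 1 to 3. The contig of 978 bp missed the rule by its values in mycorrhizal replicates 1 and 2.

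The other contigs of these Trinity genes number 61 and were not chosen by the rule, though they can share reads with the silenced ones. They held 0.202%, 0.177% and 0.223% of the reads in mycorrhizal replicates 1 to 3, against 0.301%, 0.304% and 0.318% in asymbiotic replicates 1 to 3. The groups did not overlap, and the difference was -0.107 percentage points (two-sided exact permutation p = 0.1, the smallest that 3 libraries against 3 allow). The genes of the silenced contigs of 358 and 1937 bp gave 85.3% of this fall. Without these 2 genes, left out after the values were seen, the share was 0.177%, 0.164% and 0.208% in mycorrhizal replicates 1 to 3, against 0.225%, 0.184% and 0.187% in asymbiotic replicates 1 to 3. The groups then overlapped. Of the 61, 51 passed the filter on low counts. EdgeR called 5 of them lower and 0 higher in mycorrhizal protocorms, where 0.249% of all contigs tested were called lower and 0.655% higher. At an unadjusted p under 0.05 there were 18 lower and 1 higher, against 4.23% and 4.12% of all contigs tested, and DESeq2 and limma-voom called 0 of them higher. The median log2 fold change of the 51 was -2.86, against -0.06 over all 93242 contigs tested. It differed by the class of gene. The classes were set by mycorrhizal sums that include these contigs, so this order follows at least in part from the grouping. The median was -0.30 for 24 contigs in genes that kept at least 10 CPM and -3.53 for 14 in the genes between. For 13 contigs in genes under 1 CPM it was -8.67. Without mycorrhizal replicate 3, edgeR called 10 of the other contigs lower. Without both that library and asymbiotic replicate 2 it called 1 lower, and without asymbiotic replicate 1 it called 1 higher.

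For the silenced contigs themselves, all 45 passed the filter, and edgeR called 24 lower at an adjusted p under 0.05, where 0.249% of all contigs tested were called lower. The rule used the same contrast, so this count says how the test treats such values and no more. All 6 contigs without a mycorrhizal read and 14 of the 15 with reads in every mycorrhizal library were called. Of the contigs with reads in 1 mycorrhizal library alone, 1 of 10 was called, and of those with reads in 2 libraries, 3 of 14. All 45 had an unadjusted p under 0.05. Leaving out single libraries gave 19 to 32 calls, while 8 calls were left when asymbiotic replicate 2 and mycorrhizal replicate 3 were both dropped. DESeq2 called 42.

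When reads were first added up over each Trinity gene, edgeR called 17 of the 44 genes lower and 0 higher, where 1.83% of all 57152 genes tested were called lower and 2.55% higher. These genes hold contigs chosen on the same contrast, and 19 of them consist of silenced contigs alone, so nothing is read from this count. At an unadjusted p under 0.05, 31 were lower and 0 higher, against 5.90% and 5.52% of all genes tested, and neither DESeq2 nor limma-voom called one higher. EdgeR called 14 of the 28 genes under 1 CPM, 0 of the 6 between, and 3 of the 10 that kept at least 10 CPM. These 3 are the genes of the silenced contigs of 358, 1626 and 1937 bp. The gene of the contig of 1626 bp kept 52.2% of its asymbiotic CPM, with a log2 fold change of -1.09 ± 0.27 (adjusted p = 0.00191 by edgeR). The number of genes called was 29, 25 and 30 without mycorrhizal replicate 1, 2 or 3, and 25, 26 and 28 without asymbiotic replicate 1, 2 or 3. When the rule itself was applied to summed reads, 29 Trinity genes met it, of which 28 are among the 44.

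The silenced contigs were shorter than the other 9944 expressed contigs, with a median of 717 bp against 1573 bp. Their median asymbiotic level per length was higher, at 38.3 RPKM against 21.7 RPKM, while their median CPM was lower, at 21.7 against 31.9 CPM. A limit of 10 CPM sets a higher floor in RPKM for a shorter contig. The higher RPKM thus follows at least in part from the rule and the lengths. In 40% of them the contig was the only one of its Trinity gene, against 24.4% of the others. The share of unique reads had a median of 62.2% against 31.3%. Between the asymbiotic libraries, the coefficient of variation had a median of 23.2% in the silenced contigs and 16.5% in the others. Asymbiotic replicate 2 was the highest of its group in 21 of the 45, replicate 3 in 14 and replicate 1 in 10. These comparisons are across contigs, which are not independent replicates, and carry no test.

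**Figure D5:**
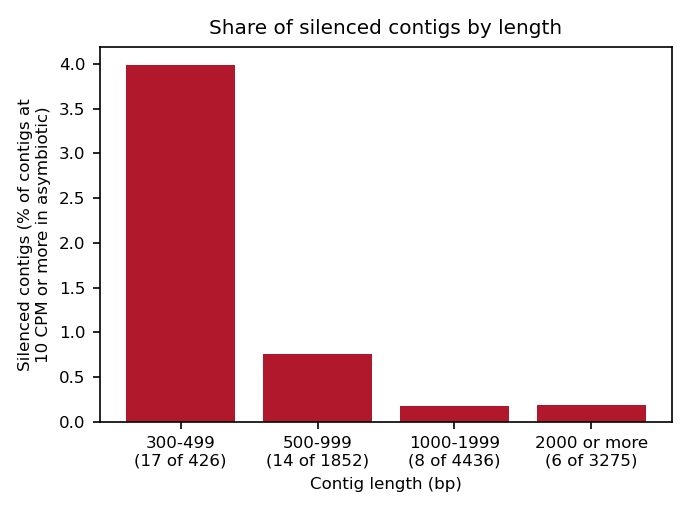
Share of silenced contigs among contigs with 10 CPM or more in every asymbiotic library, in percent, by contig length. Bars start at 0, and the labels give the numbers. The share is 3.99% below 500 bp and between 0.180% and 0.756% in the longer classes.

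The share of silenced contigs declined with length up to 2000 bp. They were 17 of the 426 expressed contigs under 500 bp (3.99%), 14 of the 1852 from 500 to under 1000 bp (0.756%), 8 of the 4436 from 1000 to under 2000 bp (0.180%) and 6 of the 3275 of 2000 bp or more (0.183%). Short contigs were also more often under 1 CPM in mycorrhizal replicate 3, at 15.96%, 10.3%, 6.99% and 6.87% in the same 4 classes. The part of that library in the trend with length was not tested. By abundance, 21 of the 45 lay between 10 and 20 CPM in the asymbiotic mean and 1 of the 1430 contigs at 100 CPM or more was silenced, the contig of 1595 bp. By unique reads, 11 of the 45 had under 10% and 14 over 90%, so that both kinds of contig are present.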

How the data were processed

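RNA from 3 mycorrhizal and 3 asymbiotic protocorm samples was sequenced as 150 bp reads on a HiSeq2500, and reads of all samples were aligned to a Trinity assembly of the asymbiotic reads, per the series' design text. The sources used here do not name the aligner or the counting tool. The authors deposited, per the file headers, unique and total read counts (raw, whole numbers) and RPKM per contig. Contig lengths follow from the deposited RPKM and total counts, within 0.00338 bp of a whole number. CPM used the total counts and the column sum of each library.

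All contigs were fitted together with edgeR 4.0.16 (R 4.3.3; filterByExpr, TMM, robust quasi-likelihood F-test, Benjamini-Hochberg at 0.05, no covariate), as were reads summed per Trinity gene. Standard errors of log2 fold changes were taken from the F statistic (size of the change over root F). Over contigs, edgeR's common dispersion was 2.06. In counts simulated with the fitted spread, edgeR's calls held more unchanged contigs than the nominal rate, so calls near the threshold are uncertain. Alternatives used DESeq2 1.42.0 and limma-voom (limma 3.58.1). Replicates differed by more than sampling noise (chi-square per degree of freedom 68.4 to 704), and nothing says that they came from separate cultures beyond the word biological, so p-values measure the spread between these samples. Depth was 87991285 to 216364014 reads. Intervals of counting error do not cover duplicated reads.

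The contigs, their rule and the way of describing them were chosen with earlier results of these data known. The 2 contigs of highest mean asymbiotic RPKM are named, ranks 3 to 20 are described by length, and the grouping of genes by their remaining reads was made after the values were seen. Figures used matplotlib 3.10.9, and permutation tests used scipy 1.17.1.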

Additional observations from a re-analysis of the deposited data

How the results depend on the processing

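Over the alternatives, the sign of the 2 named contigs never changed, but the rule had fixed that sign in advance. The difference in the share of reads on the other contigs of the Trinity genes was -0.120 to -0.0377 percentage points on total or unique reads and without libraries, and -0.0158 without the 2 genes of the largest fall, a setting chosen after seeing the data. Over all other contigs of the Trinity clusters, a much larger set, it was -1.41. The number of silenced contigs was 9 with at least 20 and under 0.5 CPM, 166 with at least 5 and under 2 CPM, 28 from 500 bp, 29 as summed Trinity genes, 51 to 67 without single libraries and 69 without asymbiotic replicate 2 and mycorrhizal replicate 3, a setting chosen after seeing the data. On unique reads 30 contigs met the rule, 21 of them among the 45. Of the 45, 39 were called lower with no filter on low counts, 42 by DESeq2, 19 to 32 without single libraries and 8 without those 2 libraries. Limma-voom called 21 of them, with 13 among the 24 called in the main fit. On unique reads edgeR called 26, with 15 among those 24. Called genes numbered 33 by limma-voom, 29 with the replicate block and 25 to 30 without single libraries, against 17. Called other contigs numbered 11 lower and 1 higher with no filter, 15 lower by DESeq2, 8 lower by limma-voom, 1 lower without those 2 libraries, and 4 to 10 lower and 0 to 1 higher without single libraries. The cause of these moves was not tested. Under the replicate block, 24 silenced contigs were called, 21 of them the same, and the contig of 1595 bp lost its call (edgeR adjusted p = 0.461, where its alternatives range from 1.8e-11 to 0.523). The labels give a number but no shared origin, and deviations of same-numbered libraries correlated at 0.02, -0.03 and -0.06. That contig also lost its call with no filter, with limma-voom and on unique reads (adjusted p = 0.191, 0.0826 and 0.0893). The median log2 fold change of all contigs was -0.06 with TMM and -0.11 with DESeq2's scaling in edgeR, and -0.94 in DESeq2 and -0.70 in limma-voom. Counts of 0 limit each fall to a bound by counting error.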
